A study of Mus musculus with 6 samples.

Results

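Activity-regulated genes are transcribed within minutes to hours of neuronal firing, and 43 of them, immediate early transcription factors and later effectors, were followed here in cultured mouse hippocampal neurons with and without *Fmr1*. The genes, and the lists set beside them below, were chosen by name with earlier results of these data known. All 43 symbols were found among the 47086 loci of the expression table. Where a symbol had several loci, the locus with the highest mean level was used. *Fmr1* gives rise to FMRP, a protein that binds mRNAs and is missing in fragile X syndrome. RNA-seq was done on total RNA of primary hippocampal cultures from postnatal pups after 14 days in vitro, in 3 wild type (WT) and 3 *Fmr1* knockout (KO) libraries, both of strain C57BL/6 and without any treatment named for them. Such cultures hold glia beside neurons, every library is a bulk sample of all of these cells, and although the methods describe the study's mice as male *Fmr1* KO animals with WT littermates, no source used here ties a litter or sex to a library of cultured cells.

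Calcium that enters through NMDA receptors and voltage-gated channels switches these genes on through calcium-dependent kinases and the MAP kinase cascade, which act on the transcription factors CREB, SRF and MEF2. The first genes to respond encode transcription factors of the FOS, JUN, EGR and NR4A families together with NPAS4, and the effectors that follow alter synapses, secretion and the matrix around neurons. In the hippocampus several of these genes are widely used as markers of recently active neurons, and some are required for lasting memory. CREB binds the cAMP response element (CRE), a palindrome of TGACGTCA, or its shorter core, TGACG.

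Promoters were shown first because the CRE is the sequence by which CREB can reach its target genes. Windows from 250 bases before to 50 bases after a RefSeq start site (GRCm38.p6) were matched for 31 of the 43 genes, and not for Nptx2, Nrn1, Dusp4, Egr3, Arc, Nptx1, Ier2, Egr1, Trib1, Sik1, Crem and Baz1a. The full CRE stood in a window of 4 of these 31 genes (12.9%), Plk2, Btg2, Maff and Dusp1, against 2.03% of the 27025 genes with a window. The core, searched as TGACG on both strands and therefore counted also inside every full CRE, stood in 21 of the 31 (67.7%) against 23.0% of all genes. The AP-1 site TGANTCA, the target of FOS and JUN dimers, was found in 0 of the 31 genes against 8.97% of all genes, the EGR site GCGTGGGCG in 1 (Maff) against 0.707%, the CArG box bound by SRF in 2 (Dusp5 and Egr2) against 1.81%, and the TATA box TATAAA in 7 (22.6%) against 15.7%. All motifs were searched on both strands, and a match marks letters in the window and not a bound site.

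The 4 promoters with a full CRE are printed 5′ to 3′ along the gene, 60 bases each, with the CRE in capitals. The stretches lie at chr13:110394956-110395015 on the plus strand for Plk2, chr1:134079288-134079347 on the minus strand for Btg2, chr15:79347465-79347524 on the plus strand for Maff and chr17:26508582-26508641 on the minus strand for Dusp1. The first base of the CRE was 62 bases before the start site in Plk2, 166 in Btg2, 29 in Maff and 143 in Dusp1. Maff had windows at several start sites, and only the window at chr15:79347270-79347569 held the full CRE.
Plk2: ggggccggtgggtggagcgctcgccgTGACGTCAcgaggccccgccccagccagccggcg
Btg2: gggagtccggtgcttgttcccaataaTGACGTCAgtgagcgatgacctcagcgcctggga
Maff: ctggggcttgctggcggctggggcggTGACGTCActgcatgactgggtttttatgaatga
Dusp1: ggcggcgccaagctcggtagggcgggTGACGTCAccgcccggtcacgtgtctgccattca

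The core nearest to the start site is shown in the same way, in capitals on either strand (TGACG or its reverse complement CGTCA). It is printed for the members with a window and a core among those at an unadjusted p below 0.05, and for Fos. Further cores are left in lower case, since the windows of Nr4a2 and Nr4a1 held 4 each and those of Egr4, Rgs4, Rgs2 and Fos 2 each, and the window of Acan held 0. This second set was chosen after the expression values had been seen. The stretches lie at chr2:57124082-57124141 (minus) for Nr4a2, chr15:101266779-101266838 (plus) for Nr4a1, chr6:85513666-85513725 (minus) for Egr4, chr1:169747751-169747810 (minus) for Rgs4, chr1:144004184-144004243 (minus) for Rgs2 and chr12:85473797-85473856 (plus) for Fos.
Nr4a2: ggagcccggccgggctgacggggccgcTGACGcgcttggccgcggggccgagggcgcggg
Nr4a1: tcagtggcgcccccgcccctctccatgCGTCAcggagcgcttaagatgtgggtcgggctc
Egr4: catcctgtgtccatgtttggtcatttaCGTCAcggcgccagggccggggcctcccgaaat
Rgs4: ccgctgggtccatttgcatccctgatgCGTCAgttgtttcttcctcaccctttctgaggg
Rgs2: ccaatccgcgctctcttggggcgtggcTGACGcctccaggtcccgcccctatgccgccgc
Fos: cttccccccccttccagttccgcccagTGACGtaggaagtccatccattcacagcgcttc

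Levels are given as FPKM, fragments scaled to the length of the transcript and the size of the library, so they can be compared between genes as levels per length. Changes are *Fmr1* KO minus WT on the scale of log2(FPKM + 0.1), from a limma fit over the 13195 loci with a mean of at least 1 FPKM in either genotype, and the added 0.1 understates the change of low genes. The absolute sequencing depth is unknown. From the steps of the lowest values, 1 fragment was worth 1.10 to 1.34 times as much in WT replicate 1 as in each of the other libraries. *Fmr1* itself stood at 19.0, 19.5 and 19.7 FPKM in WT libraries and at 23.1, 21.8 and 18.5 FPKM in *Fmr1* KO libraries, with overlapping groups (log2 change 0.12, SE 0.08, limma adjusted p = 0.536). FPKM over the whole locus does not check whether the gene was disrupted, so every direction below rests on the genotype labels. Of the cell type markers, the summed FPKM of 10 microglial genes was 6.53 to 9.03 in WT and 1.37 to 3.11 in *Fmr1* KO libraries, with Aif1 and Tmem119 at 0 in all 6. Only 4 of the 10 were tested, and these reached the minimum only through their WT means. In all 4, every *Fmr1* KO value lay below WT (against 10.3% of all tested loci). Lyz2 had a log2 change of -2.87 (limma adjusted p = 0.0359). C1qa (-2.03), C1qb (-2.33) and C1qc (-1.83) had limma adjusted p from 0.117 to 0.242. The sums of 8 astrocyte markers (1721 to 2028 against 1783 to 1981), 8 inhibitory neuron markers (319 to 338 against 299.8 to 348), 10 oligodendrocyte lineage markers (372 to 433 against 416 to 465), 8 endothelial and mural markers, of which Cldn5 was at 0 (7.82 to 8.68 against 7.06 to 8.15), and 6 general neuronal markers (1076 to 1112 against 1107 to 1178) overlapped between genotypes. The sums of 7 excitatory neuron markers, at 854.2 to 892.0 against 892.1 to 958.1, were separated by a narrow margin, and without Camk2a, which is also counted among the upstream regulators below, they were 369.7 to 384 against 356 to 379. Single markers differed within these sums. Pdgfra (log2 change 0.29), Olig2 (0.25), Dlx1 (0.38), Lhx6 (0.34) and Map2 (0.26) had all *Fmr1* KO values above WT, and Prox1 (-0.29) and Slc17a7 (-0.06) had all below, at limma adjusted p from 0.0593 to 0.575. Gja1 (-0.19) and Vip (-0.40) were lower at an unadjusted p below 0.05 with overlapping groups. The part of these cell types in the results below was not tested.

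Most activity-regulated genes were slightly lower in the *Fmr1* KO libraries, and 1 of them passed the test. Nptx2, a secreted synaptic pentraxin, fell to 0.581 times its WT mean. Below it stood the growth factor-like Nrn1, the matrix proteoglycan Acan, the transcription factors Nr4a1, Nr4a2, Egr3 and Egr4, the synaptic gene Arc, the phosphatase Dusp4 and the G protein regulators Rgs2 and Rgs4, which were lower by 0.20 to 0.55 on the log2 scale without passing the adjustment over all loci. Among the classical markers, Fos, Egr1, Npas4 and Homer1 had changes between -0.20 and 0.10, with intervals that held 0. Arc (-0.28, interval -0.49 to -0.08) and Nr4a1 (-0.31, interval -0.53 to -0.08), named above, are also such markers, and their intervals lay below 0. In bulk samples such as these, fewer cells that use a gene and less RNA per cell cannot be told apart.

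Of the 43 genes, 38 reached the minimum of 1 FPKM and were tested, and 1 of these, Inhba, reached it only through its mean in *Fmr1* KO. The change was below 0 for 28 of the 38 and above 0 for 10, with a median of -0.13, whereas 48.3% of all tested loci were below 0 and their median was 0.005. At an adjusted p below 0.05 (limma with Benjamini-Hochberg adjustment over all tested loci), 1 member was lower, where the background was 0.174% of all tested loci, and 0 were higher, against 0.0909%. At an unadjusted p below 0.05, 11 members were lower (28.9% of the 38, against 7.77% of all tested loci) and 0 were higher (against 6.99%). All 3 *Fmr1* KO libraries lay below all 3 WT libraries for 10 members (26.3%, against 10.3% of all tested loci) and above them for 1 (2.63%, against 10.8%). Members of 1 pathway can move together and are not independent observations, so these shares are descriptions. Without WT replicate 1, 7 members were lower at an unadjusted p below 0.05. Without an FPKM minimum, 42 of the 43 genes could be fitted and the median was -0.12.

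**Figure D1:**
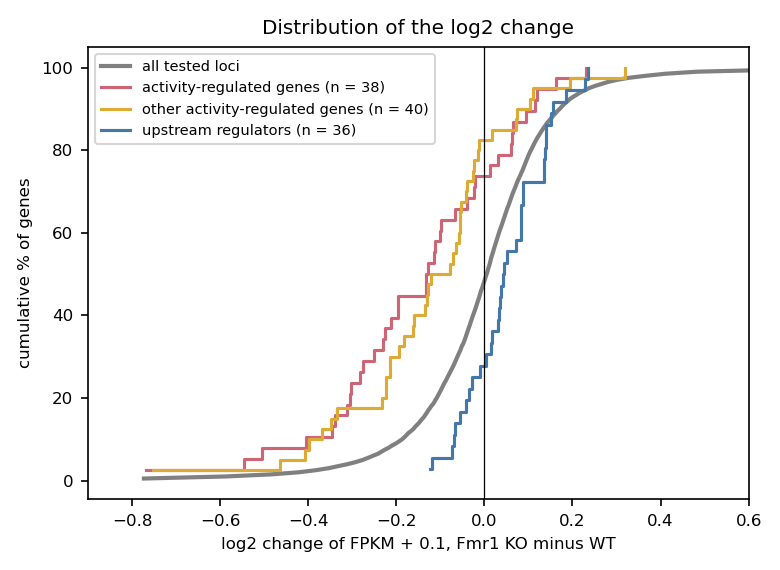
Cumulative percentage of genes (vertical axis) against the log2 change of FPKM + 0.1, Fmr1 KO minus WT (horizontal axis), for all tested loci, the 38 tested activity-regulated genes, 40 further activity-regulated genes and 36 upstream regulators. The curves of both activity-regulated lists lie left of the curve of all loci, with medians of -0.13 and -0.10, and the upstream regulators lie slightly to its right, with a median of 0.04.

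The libraries of a genotype did not share 1 level of the set. For each tested gene the deviation of a library from the mean of the 6 libraries was taken, and the median over the 38 genes was 0.10, 0.07 and -0.01 in WT replicates 1, 2 and 3 and -0.01, -0.09 and -0.07 in *Fmr1* KO replicates 1, 2 and 3 (log2). WT replicate 3 and *Fmr1* KO replicate 1 thus stood at nearly the same level between the others. The same median over all tested loci stayed between -0.003 and 0.007. WT replicate 2 held the highest value of 15 of the 38 genes and WT replicate 1 that of 10, and *Fmr1* KO replicate 3 held the lowest value of 14.

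**Figure D2:**
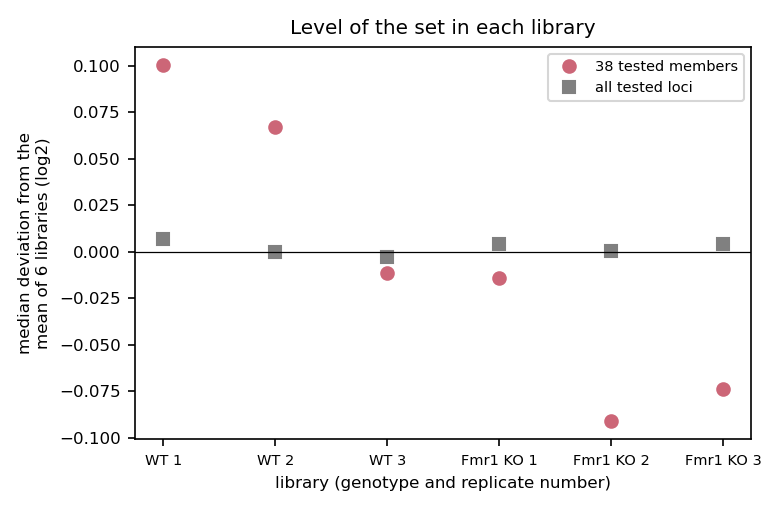
Median deviation from the mean of the 6 libraries (vertical axis, log2 of FPKM + 0.1) in each library (horizontal axis), over the 38 tested activity-regulated genes (circles) and over all tested loci (squares). The genes run from 0.10 in WT replicate 1 to -0.09 in Fmr1 KO replicate 2, WT replicate 3 and Fmr1 KO replicate 1 share a value of -0.01, and all loci stay near 0.

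The FOS and JUN families form the AP-1 dimers, the textbook first response to activity. Fos was at 6.90, 6.43 and 7.21 FPKM in the WT and 6.77, 5.87 and 5.31 FPKM in the *Fmr1* KO libraries. The groups overlapped through the first *Fmr1* KO library, and the log2 change of -0.20 (SE 0.10, 95% interval -0.42 to 0.02) had a limma adjusted p of 0.392. Its relative Fosl2, a slower member of the family, was more abundant, at means of 22.5 against 20.5 FPKM, with a log2 change of -0.13. Fosb stayed under the minimum, at 0.497, 0.844 and 0.582 FPKM in WT and 0.707, 0.523 and 0.516 FPKM in *Fmr1* KO. Jun was among the most abundant of the genes, with means of 47.4 ± 2.16 (SD, n = 3) FPKM in WT and 46.0 ± 0.953 FPKM in *Fmr1* KO and a log2 change of -0.04. The change of Junb was -0.10, at means of 8.46 and 7.86 FPKM. Jund was listed at 0 in all 6 libraries at both of its loci, which does not show that the gene was silent.

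The EGR genes encode zinc finger transcription factors, and they did not share 1 direction. Egr3 was at 17.0, 17.1 and 14.2 FPKM in WT and 14.8, 11.7 and 11.7 FPKM in *Fmr1* KO, so that only the first *Fmr1* KO library reached into the WT range. Its log2 change was -0.34 (SE 0.11, limma adjusted p = 0.217). Egr4 was at 5.11, 4.09 and 3.48 FPKM in WT and 3.41, 3.03 and 2.97 FPKM in *Fmr1* KO. All *Fmr1* KO values of Egr4 were below all WT values, by a narrow gap, and its log2 change was -0.41 (SE 0.14, limma adjusted p = 0.242). Egr1, a common marker of neuronal activity, was at 10.6, 11.1 and 9.40 FPKM in WT and 11.8, 10.2 and 11.2 FPKM in *Fmr1* KO. These values overlapped, and the log2 change of Egr1 was 0.10 (95% interval -0.09 to 0.28, limma adjusted p = 0.638). The difference between the changes of Egr1 and its relatives was not tested. Egr2, which is also a factor of myelinating cells, was under the minimum, at 0.583, 0.353 and 0.348 FPKM in WT and 0.335, 0.477 and 0.463 FPKM in *Fmr1* KO.

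The 3 NR4A genes encode nuclear receptors that act without a known bound hormone, and all 3 were lower in mean. Nr4a2 was at 7.82, 7.90 and 7.38 FPKM in WT and 6.63, 6.55 and 5.86 FPKM in *Fmr1* KO, with no overlap. The log2 change of Nr4a2 was -0.28 (SE 0.07, limma adjusted p = 0.161), and its locus in the table also carries the symbol 2210008N01Rik, so reads of both cannot be separated here. Nr4a1 was at 8.19, 7.79 and 6.42 FPKM in WT and 6.28, 6.09 and 5.63 FPKM in *Fmr1* KO. Its groups did not overlap either, although WT replicate 3 was close to the *Fmr1* KO values, and the log2 change was -0.31 (SE 0.10, limma adjusted p = 0.222). Nr4a3 was the most abundant of the family, at 26.4 ± 1.22 FPKM in WT and 24.4 ± 1.37 FPKM in *Fmr1* KO (SD, n = 3), with a log2 change of -0.11 and overlapping groups.

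None of the 8 other transcription regulators tested had an unadjusted p below 0.05. Npas4, a neuron-specific factor that responds to calcium entry, was low, at 1.80, 1.63 and 1.56 FPKM in WT and 1.63, 1.71 and 1.29 FPKM in *Fmr1* KO. Its log2 change of -0.11 had a wide interval, from -0.47 to 0.24. Crem, whose short product ICER represses CRE-driven genes, was at 4.76, 4.11 and 4.24 FPKM in WT and 4.78, 5.43 and 4.51 FPKM in *Fmr1* KO. Its groups overlapped, and with 0.16 (SE 0.10, limma adjusted p = 0.482) it had the second highest fitted change of the 38 genes. Sertad1, a regulator of cell cycle kinases, was at 2.72, 1.82 and 3.02 FPKM in WT and 2.0, 1.13 and 2.18 FPKM in *Fmr1* KO. With this spread, the largest of all 38 genes, its log2 change of -0.51 (SE 0.26, limma adjusted p = 0.418) came with overlapping groups. The stress factor Atf3 (-0.13), the small MAF protein Maff (-0.13), Ier5 (-0.07), Ier2 (0.06) and the antiproliferative gene Btg2 (0.06) had changes near 0, at limma adjusted p from 0.686 to 0.864. Klf4 was under the minimum, at 0.864, 0.617 and 0.751 FPKM in WT and 0.646, 0.411 and 0.176 FPKM in *Fmr1* KO. The chromatin remodelling subunit Baz1a was under it as well, at 0.587, 0.607 and 0.746 FPKM in WT and 0.718, 0.708 and 0.689 FPKM in *Fmr1* KO.

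The DUSP genes encode phosphatases that switch off MAP kinases and are themselves induced by that cascade. Dusp4 was at 5.45, 6.85 and 6.38 FPKM in WT and 5.14, 4.94 and 4.94 FPKM in *Fmr1* KO. The groups did not overlap, and the log2 change was -0.30 (SE 0.09, limma adjusted p = 0.206). Dusp5 was low and variable, at 1.84, 1.79 and 1.61 FPKM in WT and 1.15, 1.45 and 1.93 FPKM in *Fmr1* KO, so that the last *Fmr1* KO library was the highest of the 6 (log2 change -0.23, 95% interval -0.66 to 0.21). Dusp1 and Dusp6 had changes of 0.03 and 0.01, with 95% intervals of -0.16 to 0.22 and -0.13 to 0.16.

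Among the kinases and stress genes, the polo-like kinase Plk2, which trims synapses after prolonged activity, was the 1 member whose *Fmr1* KO values all lay above the WT values. It was at 31.0, 31.3 and 29.5 FPKM in WT and 35.2, 31.8 and 32.7 FPKM in *Fmr1* KO. The gap between the groups was small, and the log2 change of 0.12 (SE 0.06) had an unadjusted p of 0.0621 and a limma adjusted p of 0.368. Gadd45g, a stress-induced gene, was at 15.1, 11.6 and 12.1 FPKM in WT and 11.6, 9.37 and 11.5 FPKM in *Fmr1* KO. Its groups were separated by less than the rounding of the printed values (log2 change -0.25, SE 0.12, limma adjusted p = 0.366). Gadd45b, linked to activity-dependent DNA demethylation, was at 5.89, 4.0 and 4.22 FPKM in WT and 4.85, 4.22 and 3.09 FPKM in *Fmr1* KO. These groups overlapped widely, and the change was -0.21 (SE 0.19). The kinases Sik1 (-0.10) and Plk3 (0.06) and the pseudokinase Trib1 (0.12) had limma adjusted p from 0.656 to 0.863.

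**Figure D3:**
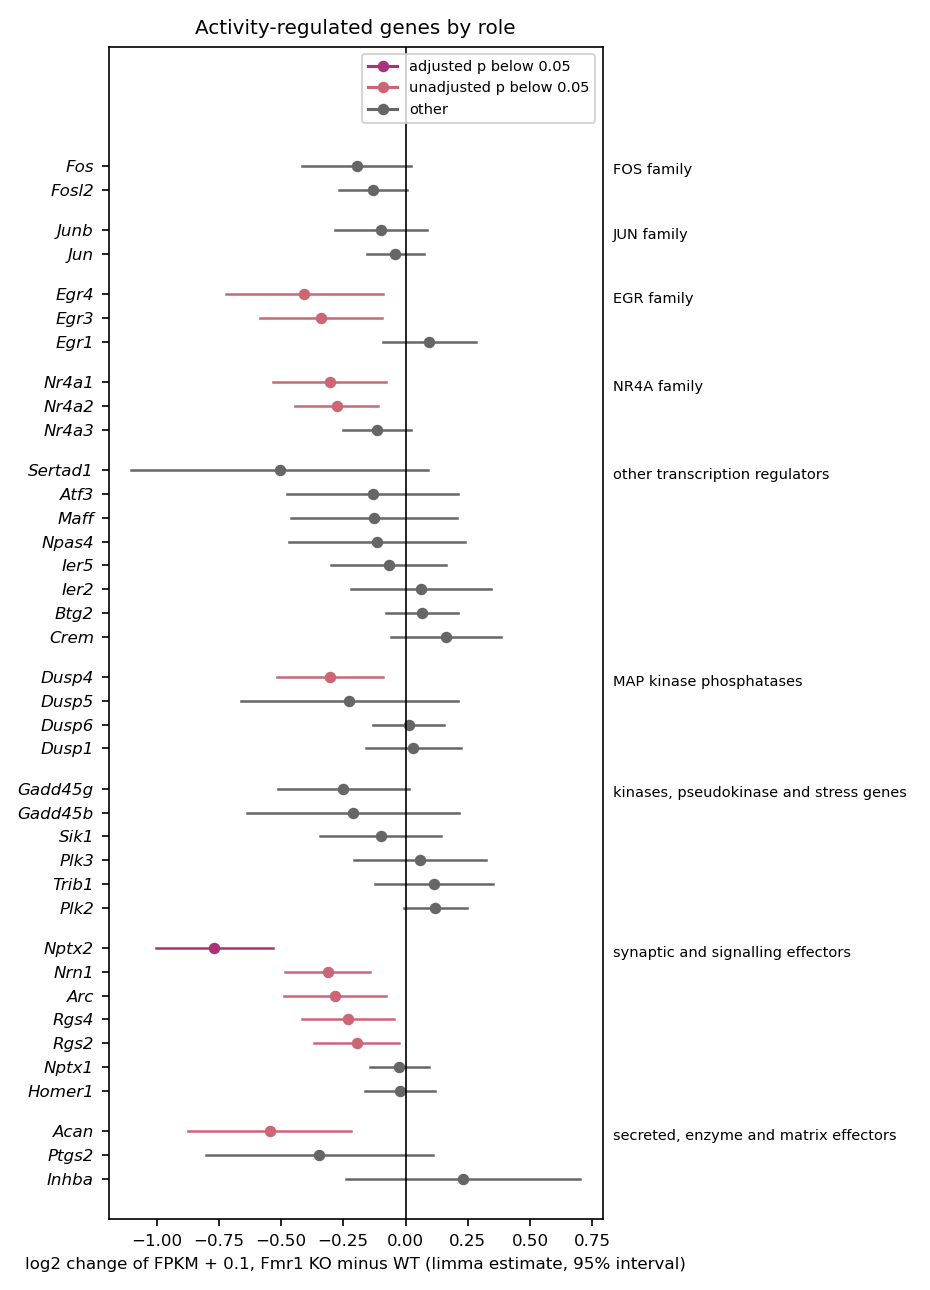
Fitted log2 change of FPKM + 0.1, Fmr1 KO minus WT (horizontal axis, points), with 95% intervals from limma (lines), for the 38 tested activity-regulated genes grouped by role (vertical axis). Nptx2 alone has an adjusted p below 0.05, at -0.77, the 10 further genes with an unadjusted p below 0.05 all lie left of 0, and no group of genes lies wholly to the right.

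The 7 synaptic and signalling effectors were all below 0, with a median of -0.23. Nptx2 lies at chr5:144545886-144557478 (GRCm38) and encodes a secreted pentraxin that gathers AMPA receptors at excitatory synapses, above all on inhibitory neurons. It was at 5.87, 6.84 and 5.86 FPKM in WT and 3.84, 3.78 and 3.17 FPKM in *Fmr1* KO. Every *Fmr1* KO value was well under the lowest WT value, and the means were 6.19 ± 0.563 and 3.60 ± 0.369 FPKM (SD, n = 3). The log2 change was -0.77 (SE 0.10, 95% interval -1.0 to -0.53, limma adjusted p = 0.0306). This call was lost whenever 1 library was left out (limma adjusted p from 0.0669 without WT replicate 1 to 0.119 without *Fmr1* KO replicate 3, log2 change -0.82 to -0.68), without an FPKM minimum (0.133) and without the mean-variance trend (0.0600). Across all other settings its adjusted p was between 0.0264 and 0.0334. Its close relative Nptx1 was at 48.8, 52.8 and 50.9 FPKM in WT and 48.7, 48.9 and 52.3 FPKM in *Fmr1* KO. Nptx1 was thus the more abundant pentraxin, with overlapping groups and a log2 change of -0.02 (95% interval -0.14 to 0.09). The difference between the changes of these 2 genes was not tested.

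Nrn1 encodes neuritin, a membrane-anchored protein that promotes neurite and synapse growth, and had the highest level of the genes. It was at 79.8, 79.5 and 73.3 FPKM in WT and 69.7, 60.9 and 57.2 FPKM in *Fmr1* KO. The groups did not overlap, and the log2 change was -0.31 (SE 0.07, limma adjusted p = 0.130). Arc, whose protein removes AMPA receptors from synapses and whose mRNA is carried into dendrites, was at 4.77, 4.35 and 4.67 FPKM in WT and 3.86, 3.43 and 4.02 FPKM in *Fmr1* KO. Arc was lower in each *Fmr1* KO library than in each WT library, with a log2 change of -0.28 (SE 0.09, limma adjusted p = 0.220). Homer1, a scaffold of metabotropic glutamate receptors whose short form is the activity-induced one, was at 16.5, 18.2 and 16.4 FPKM in WT and 17.5, 16.2 and 16.5 FPKM in *Fmr1* KO. The groups overlapped, the log2 change was -0.02 (95% interval -0.16 to 0.12), and values per locus do not separate the short form from the long ones.

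RGS proteins shorten signalling by G protein-coupled receptors. Rgs4 was at 64.1, 65.6 and 56.3 FPKM in WT and 58.5, 51.1 and 49.0 FPKM in *Fmr1* KO. Only WT replicate 3 and *Fmr1* KO replicate 1 overlapped, and the log2 change was -0.23 (SE 0.08, limma adjusted p = 0.251). Rgs2 was at 13.1, 13.7 and 11.6 FPKM in WT and 11.7, 10.9 and 10.7 FPKM in *Fmr1* KO, where the same pair of libraries overlapped. Its log2 change was -0.20 (SE 0.08, limma adjusted p = 0.280).

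The 3 secreted, enzyme and matrix effectors were all low in level, and in 2 of them all *Fmr1* KO values lay below WT (against 10.3% of all tested loci). Acan encodes aggrecan, the core proteoglycan of perineuronal nets, and was at 1.91, 2.09 and 2.04 FPKM in WT and 1.16, 1.44 and 1.46 FPKM in *Fmr1* KO. The groups did not overlap, and the *Fmr1* KO mean was 0.672 times the WT mean (log2 change -0.55, SE 0.14, limma adjusted p = 0.157). Ptgs2, the inducible cyclooxygenase, was at 1.26, 1.74 and 1.24 FPKM in WT and 1.21, 1.15 and 0.899 FPKM in *Fmr1* KO. The gap between the groups was only that from 1.24 to 1.21 FPKM, and the change of -0.35 had an SE of 0.20. Inhba, which encodes the subunit of activin A, was at 0.994, 0.865 and 0.702 FPKM in WT and 1.01, 1.07 and 0.953 FPKM in *Fmr1* KO. It had the highest fitted change of the 38 genes, 0.23, with overlapping groups and a 95% interval of -0.24 to 0.70.

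**Figure D4:**
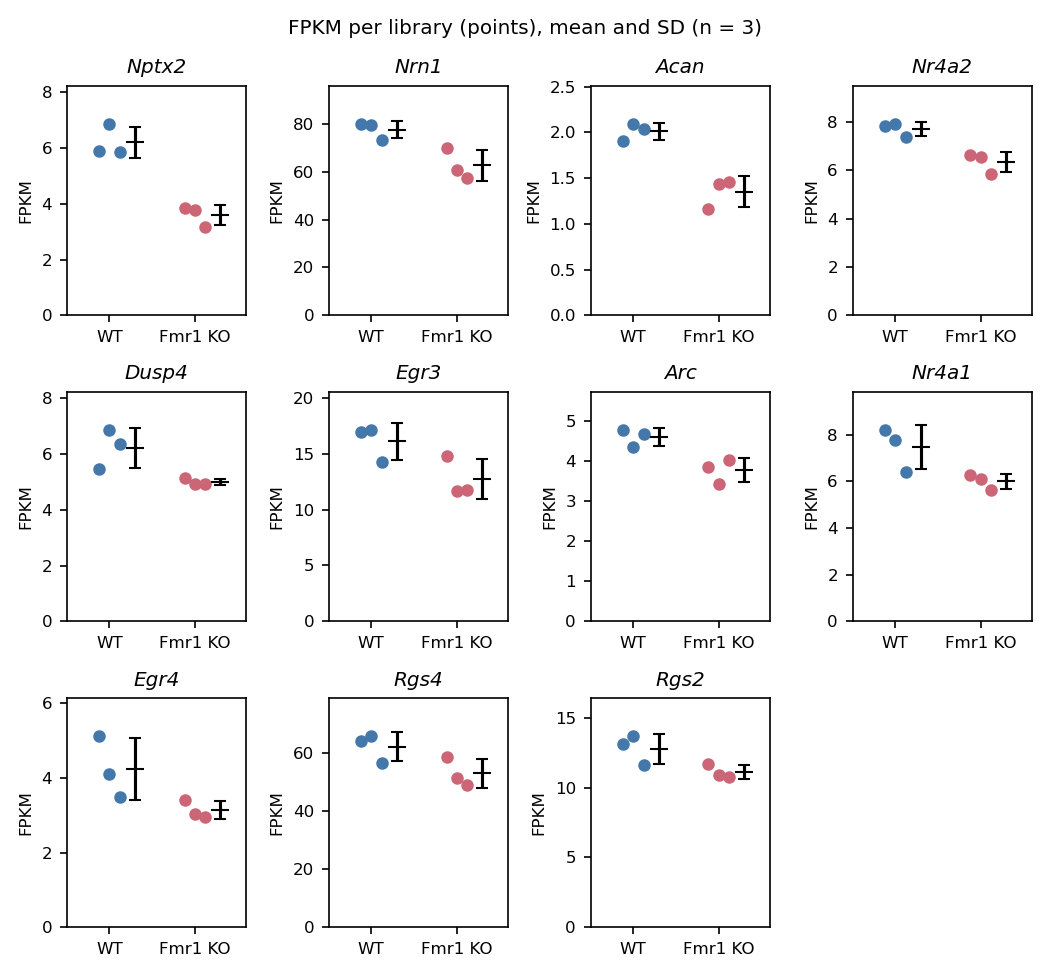
FPKM (vertical axis, from 0) in each of the 3 WT and 3 Fmr1 KO libraries (points) with the mean and SD (bars, n = 3) for the 11 activity-regulated genes at an unadjusted p below 0.05. Relative to its level, Nptx2 shows the widest gap between genotypes, from 5.86 to 3.84 FPKM, whereas Egr3, Rgs4 and Rgs2 overlap.

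The genes differed from all tested loci in features that the choice by name did not use. Their median gene span in RefSeq was 7185 bases, against 22850 bases over the 13115 of 13195 tested loci with a span. Their median level was 5.26 FPKM against 10.2 FPKM over all tested loci. The median SD between libraries of a genotype was 0.118 (log2) against 0.0972, and 25 of the 38 genes were above the median of all loci. For 23 of the 38 the change was larger than this SD of the gene. The same share over all tested loci was not taken, so this count does not set the members apart. Taking out each library's dependence on gene span left the median at -0.12, and no tested member changed its sign under that setting, centring, other pseudocounts or another FPKM minimum.

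Upstream of these genes, 36 regulators (CREB and its coactivators, SRF and MEF2 factors, calcium-dependent and other kinases, phosphatases, channels and NMDA receptor subunits) were all tested. Their changes were mostly above 0, in 26 of 36, with a median of 0.04, and the signs of 2 of the 26 (Camk2d and Ppp3ca) turned when the span trend was removed. At an adjusted p below 0.05, 0 of the 36 were called in either direction by limma, whereas 6 (16.7%, against 6.99% of all tested loci) had higher and 0 (against 7.77%) had lower means among those with an unadjusted p below 0.05. Crtc1, a coactivator that carries calcium and cAMP signals to CREB, was at 25.2, 24.9 and 25.2 FPKM in WT and 26.9, 28 and 28.9 FPKM in *Fmr1* KO (log2 change 0.15, limma adjusted p = 0.222). Its relative Crtc2 was at 6.52, 5.51 and 6.13 FPKM in WT and 7.39, 7.04 and 6.84 FPKM in *Fmr1* KO, a change of 0.23. Creb1 itself was at 9.19, 9.81 and 9.48 FPKM in WT and 10.3, 10.4 and 10.6 FPKM in *Fmr1* KO, a change of 0.14. Mef2d (0.14), the kinase gene Camk2a (0.16) and Rps6ka5 (0.24), which encodes a CREB kinase, made up the 6, and the limma adjusted p of the 6 was between 0.222 and 0.320. In all 6 genes no *Fmr1* KO value reached the WT range, which the choice by p favours. In Rps6ka5 the gap ran only from 4.43 FPKM in WT to 4.44 FPKM in *Fmr1* KO. Of the 36 regulators, 9 (25%, against 10.8% of all tested loci) had all *Fmr1* KO values above WT. All lay below WT for 1 (2.78%, against 10.3%).

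Of 48 further activity-regulated genes, 40 were tested, and 33 of these (82.5%, against 48.3% of all tested loci) were below 0 (the sign of 1, Nfkbia, turned when the span trend was removed), with a median of -0.10. Among the 33, Pdlim1 reached the minimum only through its WT mean (1.07 FPKM, against 0.899 FPKM in *Fmr1* KO), which favours a change below 0. Vgf, the precursor of secreted neuropeptides, fell. It was at 103, 105 and 94.9 FPKM in WT and 65.6, 54.9 and 59.2 FPKM in *Fmr1* KO, groups that were far apart, with a log2 change of -0.75 (SE 0.07, limma adjusted p = 0.00374). Its call held without each single library, at limma adjusted p from 0.00757 to 0.0354. Bdnf, the neurotrophin released by activity, was at 16.4, 15.0 and 13.4 FPKM in WT and 11.7, 10.6 and 10.1 FPKM in *Fmr1* KO. No value of Bdnf overlapped, and its log2 change was -0.46 (SE 0.09, limma adjusted p = 0.0753). Pcsk1, which encodes an enzyme that cuts peptide precursors, had a change of -0.40, the granin Scg2 -0.22 and the neuropeptide gene Npy -0.19. The receptor gene Gpr3 (-0.37), the repressor gene Bhlhe40 (-0.21), the phosphatase subunit gene Ppp1r15a (-0.23) and the transcription factor gene Cebpb (-0.41) completed the 9 of 40 (22.5%, against 7.77% of all tested loci) that were lower at an unadjusted p below 0.05. Higher at that threshold were 2 genes (5.0%, against 6.99%), Amigo3 (0.32) and the kinase gene Sgk1 (0.20), at limma adjusted p of 0.250 and 0.273.

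**Figure D5:**
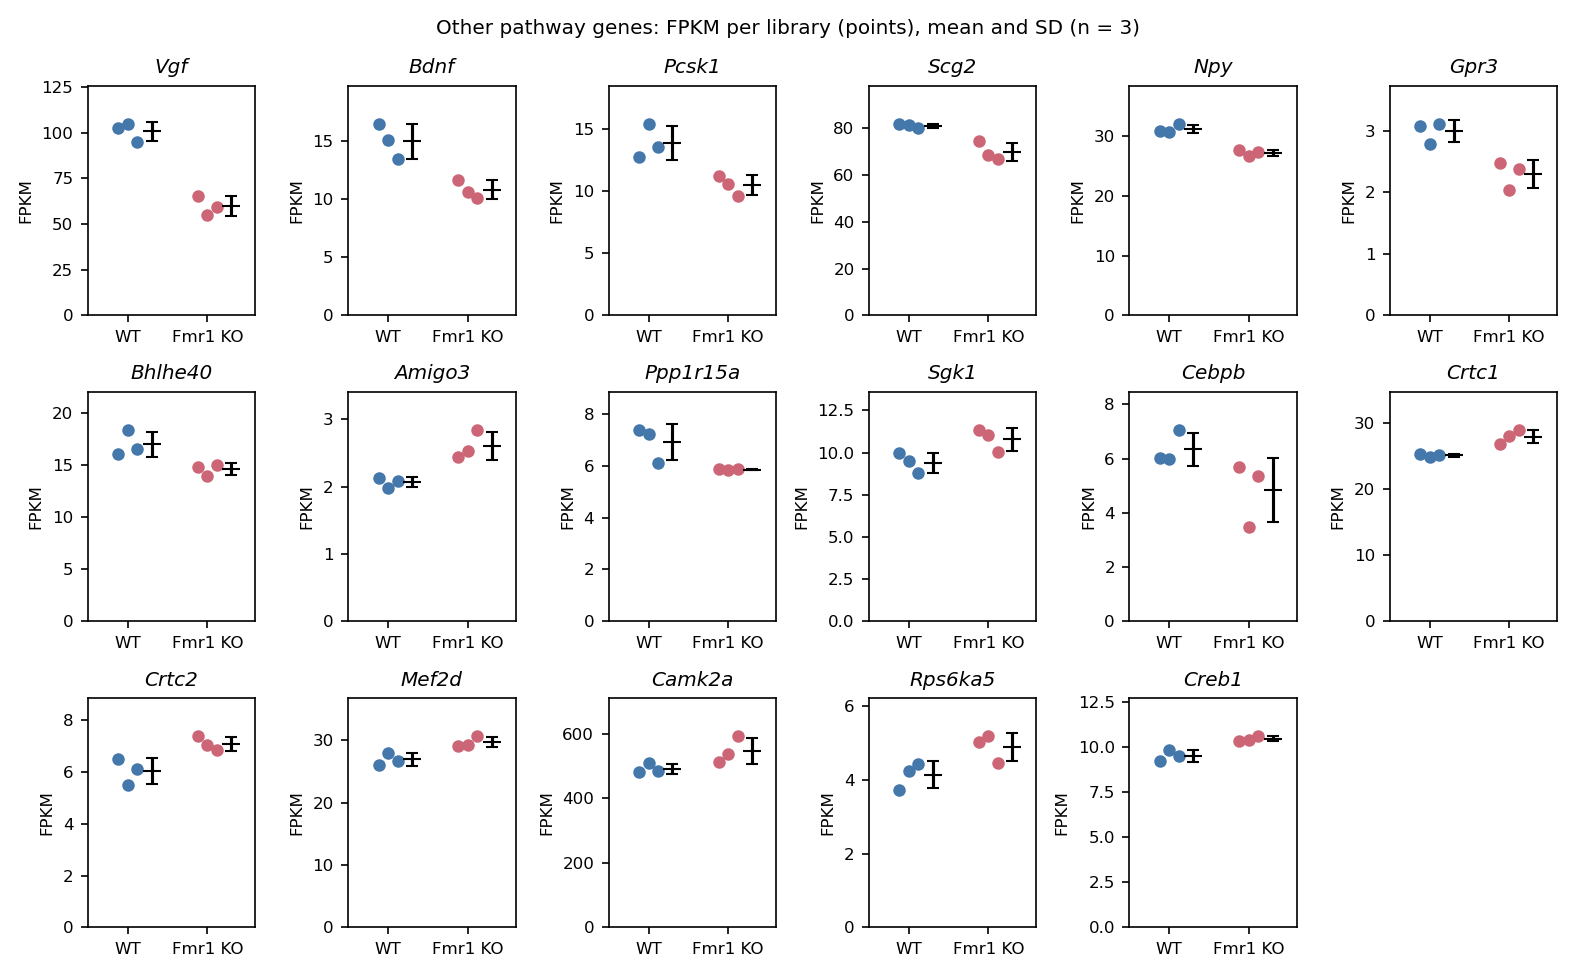
FPKM (vertical axis, from 0) in each of the 3 WT and 3 Fmr1 KO libraries (points) with the mean and SD (bars, n = 3) for the further activity-regulated genes and upstream regulators at an unadjusted p below 0.05. Vgf shows the widest gap, from 94.9 to 65.6 FPKM, and the upstream regulators are all higher in Fmr1 KO in mean.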

How the data were processed

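RNA-seq was performed with total RNA of primary hippocampal cultures, 3 WT and 3 *Fmr1* KO libraries, grouped by the sample labels. Per the methods, the authors trimmed adapters and low-quality ends, aligned reads to GRCm38 (TopHat2), assembled genes (Cufflinks) and compared genotypes (Cuffdiff), tools also named in the submitters' processing notes. Versions, annotation and library scaling were not given in the sources used here. In the table that the authors deposited, values are FPKM per library for 48100 rows (462 without a symbol, 47086 loci), beside group FPKM and Cuffdiff results, which were not used. Because FPKM are scaled values, no count test was applied, and without depths no counting interval is given.

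Loci with a mean of at least 1 FPKM in either genotype were tested with limma 3.58.1 (R 4.3.3) on log2(FPKM + 0.1), fitting genotype alone with a trend of variance on mean, and adjusting by Benjamini-Hochberg over 13195 loci. The code was tested on simulated data. With 3 against 3 libraries an exact permutation test cannot give a p below 0.1. P-values measure the spread between these libraries, which may be partly technical, since separate litters are not named for them. The genes, lists and tests were chosen with earlier results of these data known, so counts over a list are descriptions.

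Values in all libraries are given for members at an adjusted or unadjusted p below 0.05, members whose groups do not overlap, the 3 with the highest mean, the 3 highest and 3 lowest changes, the 3 with the largest spread, members under the minimum, and Fos, Egr1, Arc, Npas4, Nr4a1 and Homer1. Other pathway genes are named at an unadjusted p below 0.05. Promoters are RefSeq windows of GRCm38.p6, shown for members with a full CRE. Alternatives were pseudocounts of 1 and 0.01, no minimum and a minimum of 5 FPKM, centring, removal of the trend with gene span (lowess, span 0.3), no mean-variance trend, a replicate block, summed loci and each library left out. Results of 1 pathway gene and 1 marker gene are not reported here.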

Additional observations from a re-analysis of the deposited data

How the results depend on the processing

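The median change of the 38 tested members stayed between -0.16 and -0.10 under every setting tried. The lower member at an adjusted p below 0.05 (Nptx2) was lost, leaving 0, without an FPKM minimum, without the mean-variance trend and without each single library (0 to 0). Members higher at an unadjusted p below 0.05 became 1 with the span trend removed and 1 with the replicate block, and 0 to 1 without single libraries, where lower ones numbered 7 to 14. Members with all *Fmr1* KO libraries below WT numbered 6 at a minimum of 5 FPKM, where only 20 members were tested, and 10 to 18 without single libraries, and those above 1 to 4, since fewer libraries separate more easily. Among the other pathway genes, single libraries left out gave 3 to 8 higher at an unadjusted p and 13 to 20 with all *Fmr1* KO libraries below WT. The cause of these shifts beyond the smaller number of samples or loci was not tested.

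Replicate numbers are shared by both genotypes, but same-numbered libraries correlated in their deviations from the group means at 0.243, 0.0577 and 0.0801, so the numbers were not taken to pair the samples. WT replicate 1 correlated best with *Fmr1* KO replicate 1. WT replicates 2 and 3 correlated best with *Fmr1* KO replicate 3, at 0.0658 and 0.0801, close to 0.0577 and 0.0781 with *Fmr1* KO replicate 2. With the replicate block, lower pathway genes at an adjusted p below 0.05 became 2 (Vgf, and Bdnf at 0.0293 by limma), and over all loci 29 were higher and 36 lower. The latter counts were 12 and 23 without the block, 6 and 9 without a minimum, 20 and 34 at a minimum of 5 FPKM, 21 and 31 with the span trend removed, 7 and 14 without the trend, and 5 to 7 and 8 to 13 without single libraries. With a pseudocount of 0.01 they were 8 and 22.

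Signs turned only for changes with an interval around 0. With the span trend removed, Camk2d became -0.0014, Ppp3ca -0.011 and Nfkbia 0.00084. Without single libraries, the log2 changes of the members that turned ran from -0.19 to 0.0030 for Npas4, -0.033 to 0.14 for Ier2, -0.023 to 0.077 for Dusp1, -0.015 to 0.029 for Dusp6, -0.019 to 0.14 for Plk3, -0.054 to 0.025 for Homer1 and -0.058 to 0.0034 for Nptx1. Of the other pathway genes they ran from -0.049 to 0.023 for Atf2, -0.057 to 0.11 for Srf, -0.086 to 0.22 for Elk4, -0.0093 to 0.12 for Mkl1, -0.0051 to 0.093 for Mef2c, -0.0016 to 0.058 for Camk2b, -0.024 to 0.045 for Camk2d, -0.062 to 0.089 for Ppp3ca, -0.039 to 0.080 for Ppp3cb, -0.043 to 0.11 for Rps6ka3, -0.074 to 0.016 for Rps6ka4, -0.41 to 0.20 for Grin2a, -0.15 to 0.12 for Grin2b, -0.15 to 0.054 for Ier3, -0.39 to 0.033 for Csrnp1, -0.049 to 0.030 for Tiparp, -0.093 to 0.00042 for Rheb, -0.074 to 0.033 for Dusp14, -0.050 to 0.097 for Fbxo33, -0.14 to 0.025 for Mest, -0.10 to 0.074 for Nfkbia, -0.21 to 0.068 for Penk and -0.16 to 0.0096 for Sst. Depth is unknown. Members near 1 FPKM had wide intervals, but the widest was that of Sertad1 (-1.10 to 0.09), at a mean of 2.15 FPKM.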
